A study of Mus musculus with 6 samples.

Results

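Matrix metalloproteinases and their inhibitors were read in RNA-seq of microglia that had been cultured with neutrophils from the injured spinal cord. The members of the group were 10 genes chosen by name: the 6 matrix metalloproteinase (MMP) genes Mmp2, Mmp8, Mmp9, Mmp12, Mmp13 and Mmp14, the membrane proteinase gene Adam8, and the 3 tissue inhibitor of metalloproteinases (TIMP) genes Timp1, Timp2 and Timp3. All 10 were found among the 55335 gene identifiers of the expression table. The comparison asked how the loss of Cd177, a gene for a neutrophil surface protein, in the neutrophils changed these transcripts in the microglia.

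Every library held primary microglia of genotype WT from the brains of neonatal C57BL/6 mice, shaken off mixed glial culture on day 14 and kept with neutrophils for 24 h. The neutrophils were taken by magnetic sorting (MACS) from spinal cord lesions at 3 dpi (days post injury), from Cd177 WT mice in 3 libraries and from Cd177 KO mice in the other 3. Both arms therefore contained neutrophils, the microglia of both carried Cd177, and no arm without neutrophils was analysed here. Microglia were then collected by FACS as Ly6G- cells, Ly6G being a surface protein of mouse neutrophils. The 2 arms are called WT and KO here after the genotype of the neutrophils.

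MMPs are zinc-dependent proteinases that cut collagens, elastin, laminins and other proteins of the extracellular matrix, and also chemokines and cell surface receptors. Most are secreted as inactive proenzymes and are opened by another proteinase, and TIMPs block the active enzymes by binding to their catalytic site. In the injured spinal cord gelatinases such as MMP9 are known for opening the blood-spinal cord barrier. Macrophages, microglia and neutrophils are sources of several of these enzymes, so transcript levels in a sorted population depend on which cells it holds.

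Means are given ± SD over the libraries of an arm, n = 3 for each arm. Libraries of an arm were closer to each other than to those of the other arm, with a Pearson's r over all genes tested of 0.988 to 0.989 within and 0.957 to 0.959 between arms (a correlation across genes, which are not independent replicates). FPKM, a level per kilobase of transcript and per 1000000 mapped fragments, summed to 314085 to 315632 in WT and 323588 to 326868 in KO libraries. From the spacing of low values, the depth was estimated at 15.7 to 19.6 per library, in units of 1000000 fragments. A detection floor of 3 fragments was computed for each gene on its shortest annotated coding transcript (counting error only). For a gene read mainly from a longer transcript this floor is too high. Cd177 itself was low in the sorted microglia, at 0.477, 0.113 and 0.151 FPKM in WT and 0.109, 0.0217 and 0.0845 FPKM in KO libraries, with a floor of 0.0705 FPKM at most and 1 of the 6 values under it. The arms did not overlap, with KO lower, but the gene was deleted in the neutrophils and not in the microglia that were sequenced. Of 12 microglia and macrophage markers, 9 had a mean of at least 1 FPKM, among them Cd68, Tyrobp and Adgre1, whereas the defining microglial transcripts P2ry12 and Tmem119 had at most 0.148 and 0.793 FPKM. The 12 summed to 793 to 831 FPKM in WT and 931 to 970 FPKM in KO libraries. Of the 9 tested, 5 were called higher, with Cd68 and Tyrobp, and 2 lower, Adgre1 and Cx3cr1, in the fit given below. That was 77.8% called, beside 43.3% of all genes tested (24.5% higher, 18.8% lower). The part of these markers in the differences of the members was not tested. The methods describe male animals, but Xist had 105.9 to 126.2 FPKM in every library and 4 of 4 Y-linked genes were listed at 0. The labels do not say whether the replicates were separate cultures or animals, so p-values measure only the spread between these libraries.

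Promoter sequences are shown for members that the results turn on, to place them beside the levels. RefSeq promoters (mouse GRCm38.p6, 250 bases before to 50 after the annotated start) were found for 8 of the 10 members, all but Mmp2 and Mmp9. Both strands of each window were searched for the AP-1 motif TGANTCA, the NF-kB motif and the PU.1 motif GAGGAA, which are bound by transcription factors of activated macrophages. Of 32851 promoters of the same length, 7.81% held the AP-1 letters, 8.46% the NF-kB letters and 28.28% the PU.1 letters. In the 4 windows printed here, chosen after the levels were seen, capitals mark the AP-1 letters and no capitals mean that none of the 3 motifs was found. Mmp13 is at chr9:7272264-7272563 on the plus strand, the downstream start of Mmp12 at chr9:7347124-7347423 on the plus strand, Adam8 at chr7:139992513-139992812 on the minus strand and Timp2 at chr11:118355362-118355661 on the minus strand.
Mmp13: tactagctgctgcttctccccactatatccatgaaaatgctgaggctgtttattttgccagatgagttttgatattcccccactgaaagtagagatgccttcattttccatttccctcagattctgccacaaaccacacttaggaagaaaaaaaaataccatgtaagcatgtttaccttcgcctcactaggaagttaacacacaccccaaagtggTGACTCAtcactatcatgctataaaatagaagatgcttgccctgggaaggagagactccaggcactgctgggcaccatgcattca
Mmp12: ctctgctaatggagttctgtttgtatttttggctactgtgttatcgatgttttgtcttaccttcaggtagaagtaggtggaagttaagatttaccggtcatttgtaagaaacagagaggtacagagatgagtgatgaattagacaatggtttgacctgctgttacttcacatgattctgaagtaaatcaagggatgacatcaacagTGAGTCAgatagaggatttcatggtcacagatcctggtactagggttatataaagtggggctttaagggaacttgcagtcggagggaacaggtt
Adam8: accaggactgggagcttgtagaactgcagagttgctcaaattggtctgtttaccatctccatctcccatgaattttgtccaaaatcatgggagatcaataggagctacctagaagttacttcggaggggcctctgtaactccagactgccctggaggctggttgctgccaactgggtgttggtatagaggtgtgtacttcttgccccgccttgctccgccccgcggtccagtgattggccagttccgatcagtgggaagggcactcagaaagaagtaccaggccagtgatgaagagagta
Timp2: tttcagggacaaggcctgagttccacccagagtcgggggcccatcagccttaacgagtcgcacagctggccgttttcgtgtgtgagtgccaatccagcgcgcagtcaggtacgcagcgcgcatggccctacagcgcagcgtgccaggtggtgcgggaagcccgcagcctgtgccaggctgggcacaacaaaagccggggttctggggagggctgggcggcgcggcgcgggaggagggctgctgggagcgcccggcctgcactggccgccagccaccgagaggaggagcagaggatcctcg
The AP-1 letters lay 35 to 29 bases upstream of the start in Mmp13 and 44 to 38 bases upstream in Mmp12. The other annotated start of Mmp12 held an NF-kB match and a PU.1 match, and Mmp8 held a PU.1 match. None of the 3 motifs was found in the windows of Adam8, Timp1, Timp2, Timp3 and Mmp14. A match describes the letters in the window and is not a measured binding site.

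In microglia kept with KO neutrophils, Mmp9, Adam8 and Mmp12 were lower and Timp2 was higher than with WT neutrophils. Mmp9 showed by far the widest difference of the 4, while those of Adam8, Mmp12 and Timp2 were each under 2-fold. Limma was fitted on log2(FPKM + 1) to the 11395 genes whose mean reached 1 FPKM, with p-values adjusted over all of them, and genes were called at an adjusted p under 0.05. Of the 10 members, 4 entered this test, 3 were called lower and 1 higher. Calls were common in the table: 43.3% of the genes tested were called, 24.5% higher and 18.8% lower with KO neutrophils. The 4 members tested also did not overlap between the arms, as was so for 55.8% of the genes tested. The median fitted change was -0.34 over the 4 members tested and 0.02 over all genes tested. Means of the other 6 members stayed under 1 FPKM, and Timp3 was listed at 0 in all 6 libraries.

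The order of the levels, which FPKM allows between genes since it is per length, differed between the arms. In the WT arm it ran Adam8, Mmp9, Timp2, Mmp12 and Mmp13, with no overlap between neighbours in that order. In the KO arm it ran Adam8, Timp2, Mmp12 and Mmp9, again without overlap, and Mmp2 and Mmp13 followed with overlapping values. Mmp9 thus stood above Timp2 and Mmp12 in the WT arm and below both in the KO arm. Timp1, Mmp2, Mmp8 and Mmp14 in the WT arm, and Mmp2, Mmp13, Timp1 and Mmp8 in the KO arm, overlapped with their neighbours in the order and cannot be ranked.

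Mmp9 encodes gelatinase B, which cuts denatured collagen and the collagen of basement membranes. The gene (ENSMUSG00000017737) lies on the plus strand of chromosome 2 from 164940780 to 164955850 (GRCm38). Its level was 7.08, 7.11 and 7.21 FPKM in the WT libraries and 0.770, 1.06 and 1.13 FPKM in the KO libraries. Every WT library was several times above every KO library, and all 6 values lay above the floor of 0.460 FPKM. Mean levels were 7.135 ± 0.0688 FPKM in the WT arm and 0.987 ± 0.190 FPKM in the KO arm, a ratio of WT to KO of 7.23. The fitted log2 change was -2.04 (SE 0.08, 95% interval -2.23 to -1.85, limma adjusted p = 7.38e-06), which was the 51st lowest of the 11395 genes tested. When calls were instead made at a change of over 2-fold and an unadjusted p under 0.05, the threshold of the study, Mmp9 was the single member called, against 2.57% of all genes tested in either direction and 2.02% in the direction of Mmp9. Its mean with KO neutrophils was under 1 FPKM, so it entered the test through its WT libraries.

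MMP9 is also stored in neutrophil granules, and neutrophil transcripts were therefore read in the same libraries. Of 18 neutrophil markers, 8 were listed at 0 in all 6 libraries, namely S100a9, Ly6g, Ltf, Mpo, Elane, Retnlg, Wfdc21 and Stfa2l1. The summed level of the 18 was 141 to 150 FPKM in WT and 7.63 to 8.80 FPKM in KO libraries, and most of it came from Lcn2 and Hp, both called lower, which are also known from activated macrophages. The other 16 markers, with Csf3r and Cxcr2 the most abundant, summed to 1.77 to 2.34 FPKM in WT and 0.880 to 1.254 FPKM in KO libraries. In 6 of the 18, S100a8, Camp, Csf3r, Cd177, Lcn2 and Hp, the arms did not overlap and the KO arm was lower, as for Mmp9 (named after their values were seen). The 8 markers at 0 in every library could not separate the arms. Lcn2 and Hp were tested, and 55.8% of all genes tested did not overlap, in either direction. The other 4 had means under 1 FPKM, where 7.36% of genes above 0 did not overlap with KO lower. S100a8 was at or under its floor in 4 of 6 libraries and Camp in 5 of 6. Of these, S100a8 had 0.405 ± 0.0822 FPKM in the WT arm and 0.110 ± 0.0968 FPKM in the KO arm, and Csf3r had 0.621 ± 0.107 and 0.302 ± 0.0893 FPKM. The part of residual neutrophil RNA in the Mmp9 difference was not tested. In bulk RNA, fewer cells that express a gene and less RNA per cell cannot be told apart.

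**Figure D1:**
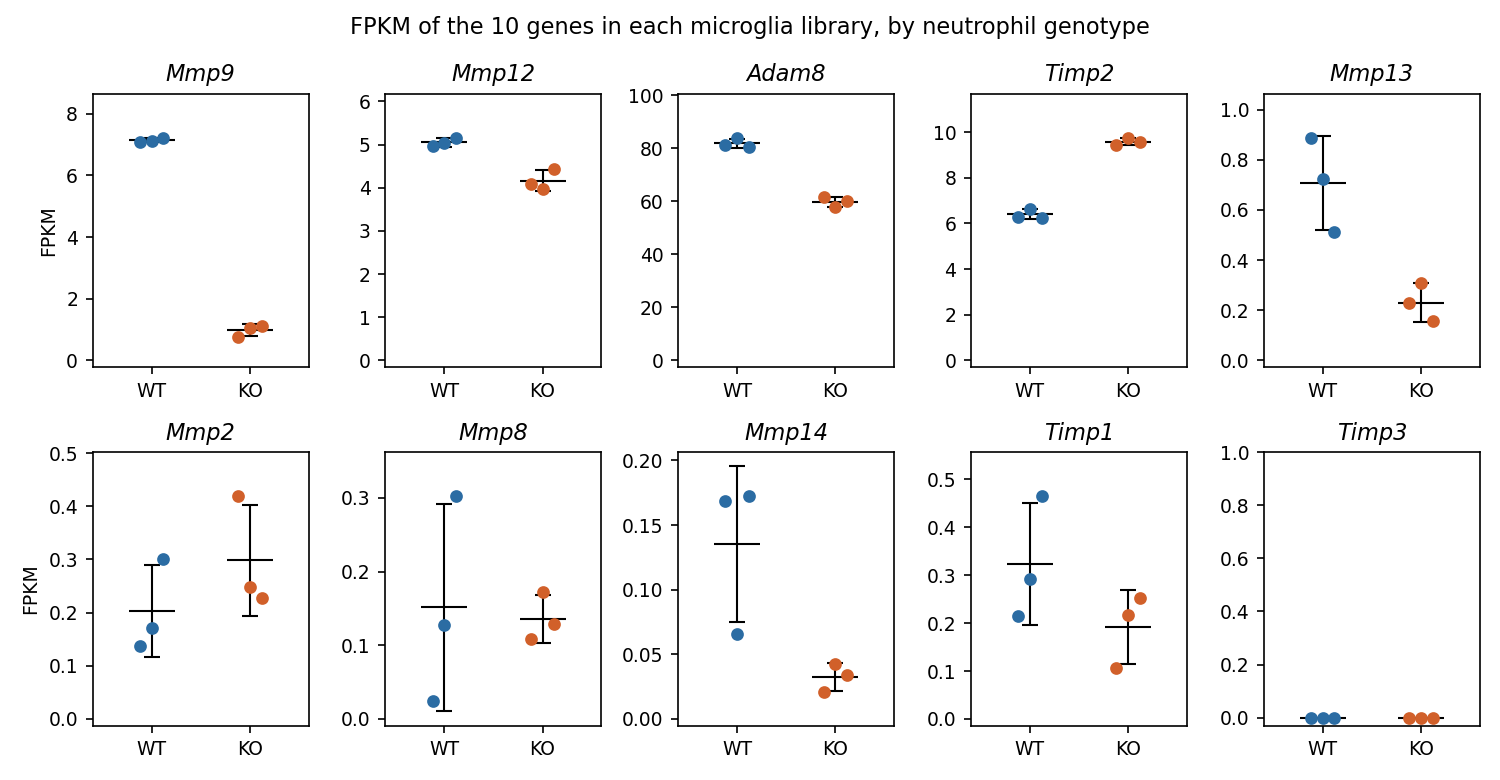
FPKM of each of the 10 genes in the 3 WT and the 3 KO libraries (points), with the arm mean as a line and the SD as a bar, each panel on its own linear axis from 0. Mmp9 fell from about 7.1 FPKM in every WT library to at most 1.13 FPKM in the KO libraries, and Timp3 was listed at 0 in all 6.

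Mmp12 encodes macrophage metalloelastase, named for its digestion of elastin. It lies on the plus strand of chromosome 9 from 7344381 to 7369499. With WT neutrophils it had 4.96, 5.03 and 5.15 FPKM, and with KO neutrophils 4.09, 3.97 and 4.43 FPKM. The 3 KO libraries lay below the 3 WT libraries, with a gap that was narrow beside that of Mmp9. The KO mean was 0.825 times the WT mean (4.16 ± 0.239 against 5.05 ± 0.0954 FPKM), and the fitted log2 change was -0.23 (SE 0.05, 95% interval -0.35 to -0.11, limma adjusted p = 0.0130). Its change was the 1902nd lowest of the genes tested, well inside the bulk of the table. A difference between Mmp9 and Mmp12 can also be read within each library, where no scaling between libraries enters. The ratio of Mmp9 to Mmp12 FPKM was 1.43, 1.41 and 1.40 in WT and 0.188, 0.268 and 0.254 in KO libraries, so Mmp9 exceeded Mmp12 in each WT library and stood below it in each KO library (exact two-sided permutation p = 0.1, the smallest that 3 against 3 libraries allow).

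Mmp13 and Mmp8 encode collagenases, MMP13 (collagenase 3) being the main interstitial collagenase of rodents and MMP8 being known as neutrophil collagenase. Mmp13 (chromosome 9, 7272514 to 7283331, plus strand) had 0.887, 0.723 and 0.514 FPKM in WT and 0.227, 0.309 and 0.156 FPKM in KO libraries. These low values did not overlap between the arms and all lay above the floor of 0.0716 FPKM, with a WT mean 3.07 times the KO mean (0.708 ± 0.187 against 0.231 ± 0.0769 FPKM; exact permutation p = 0.1). Among the 13800 genes with some signal but a mean under 1 FPKM, 13.8% did not overlap between the arms and 7.36% did so with the KO arm lower. Mmp13 did not enter the main fit. With no filter on low values its fitted log2 change was -0.47 (SE 0.10, limma adjusted p = 0.0255), and the difference of means was -1.29 with a pseudocount of 0.1 and -0.92 on the TPM scale, with no test. Mmp8 (chromosome 9, 7558456 to 7568485, plus strand) had 0.0244, 0.128 and 0.302 FPKM in WT and 0.108, 0.172 and 0.129 FPKM in KO libraries. Its arms overlapped fully, the exact permutation p was 0.9, and a difference was not detectable at this depth. The neutrophil collagenase transcript was thus low in both arms.

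Mmp13, Mmp12 and Mmp8 belong to a cluster of MMP genes on chromosome 9. Between 7272514 and 7699585 the annotation lists 10 MMP genes, and Mmp12 was the 1 gene of the 10 with a mean of at least 1 FPKM. Mmp1b, Mmp3, Mmp1a, Mmp27, Mmp20 and Mmp7 were listed at 0 in all 6 libraries. Mmp10, which encodes stromelysin 2, had at most 0.062 FPKM. The neighbours in the cluster therefore did not share the level of Mmp12.

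Mmp2 encodes gelatinase A, an enzyme typical of fibroblasts and other stromal cells, and Mmp14 encodes the membrane-bound MMP that activates pro-MMP2. Mmp2 (chromosome 8, 92827291 to 92853420, plus strand) had 0.137, 0.171 and 0.300 FPKM in WT and 0.418, 0.248 and 0.228 FPKM in KO libraries. The arms overlapped (exact permutation p = 0.3). Mmp14 (chromosome 14, 54431612 to 54445364, plus strand) had 0.169, 0.0657 and 0.172 FPKM in WT and 0.0210, 0.0424 and 0.0337 FPKM in KO libraries. Although the arms did not overlap, all 6 values of Mmp14 were under the floor of 0.573 FPKM, so no fold is given. Of 12 stromal and vascular markers, 5 were listed at 0 in all 6 libraries, 2 entered the test (Vwf higher, Flt1 lower) and the sum was 12.7 to 12.9 FPKM in WT and 12.0 to 12.4 FPKM in KO libraries. Of the gelatinase genes, Mmp9 was thus above Mmp2 in every library of both arms.

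Adam8 was the most abundant member. It encodes a membrane-anchored disintegrin and metalloproteinase of myeloid cells that sheds surface proteins such as adhesion receptors. The gene (ENSMUSG00000025473) lies on the minus strand of chromosome 7 from 139978932 to 139992562. It had 81.4, 83.9 and 80.5 FPKM in the WT libraries and 61.8, 57.8 and 60.0 FPKM in the KO libraries. The arms were far apart beside their own spread, and among all genes tested the mean level stood at percentile 94.99. The KO mean was 0.731 times the WT mean (59.86 ± 1.99 against 81.95 ± 1.76 FPKM; log2 change -0.45, SE 0.03, 95% interval -0.52 to -0.37, limma adjusted p = 9.8e-05). In absolute terms this was a difference of -22.09 FPKM, larger than the -6.15 FPKM of Mmp9. Adam8 held 85.96% ± 0.440 of the summed FPKM of the 7 proteinase genes in WT and 91.09% ± 0.474 in KO libraries (exact permutation p = 0.1), so its share was higher in the arm where its level was lower. The antisense gene Gm16201 overlaps Adam8 at 1.27 to 1.74 FPKM, and whether the counting used strand is not given in the sources used here.

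**Figure D2:**
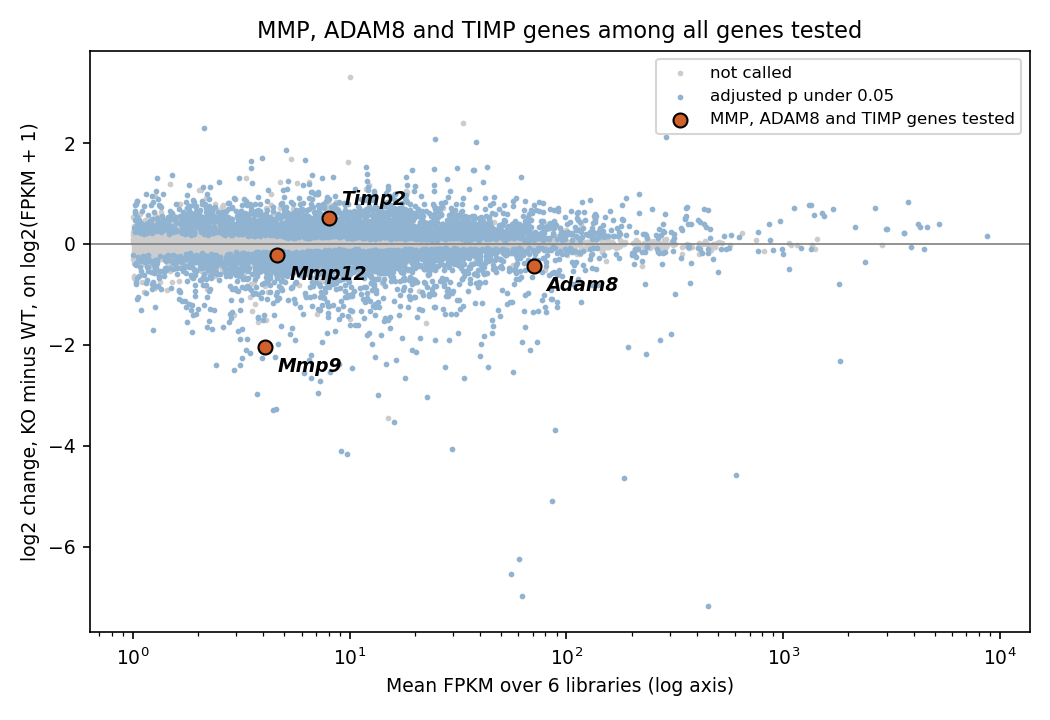
Fitted log2 change (KO minus WT, on log2(FPKM + 1)) of every gene tested against its mean FPKM (log axis), with the 4 tested members labelled. Mmp9 lies at -2.04 below the main body of genes, and Mmp12, Adam8 and Timp2 lie within it.

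Among the inhibitors, Timp2 made up nearly all of the transcript. TIMP2 blocks most MMPs and also, together with MMP14, takes part in the activation of pro-MMP2. Timp2 (ENSMUSG00000017466, chromosome 11, 118301069 to 118355740, minus strand) had 6.30, 6.65 and 6.25 FPKM in WT and 9.42, 9.74 and 9.58 FPKM in KO libraries. Each KO library was above each WT library, in the direction opposite to the 3 proteinases. The KO mean was 1.498 times the WT mean (9.58 ± 0.163 against 6.40 ± 0.216 FPKM), and the fitted log2 change was 0.52 (SE 0.04, 95% interval 0.42 to 0.61, limma adjusted p = 0.000144), the 608th highest of the genes tested.

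The other inhibitors were low. Timp1, the inhibitor that is inducible in many inflamed tissues and binds pro-MMP9, lies on chromosome X from 20870166 to 20874735. It had 0.216, 0.293 and 0.464 FPKM in WT and 0.106, 0.217 and 0.253 FPKM in KO libraries. Its arms overlapped (exact permutation p = 0.3), and values near the floor of 0.230 FPKM do not show a difference at this depth. Its antisense neighbour Syn1, a neuronal gene that overlaps it, was listed at 3.00 to 4.31 FPKM, so the Timp1 level is uncertain if strand was not used. Timp3 (chromosome 10, 86300372 to 86349506), whose protein is bound to the matrix and also blocks ADAM17, was listed at 0 in every library, with a floor of 0.544 FPKM. Timp2 held 95.19% ± 1.87 of the summed TIMP level in WT and 98.04% ± 0.754 in KO libraries.

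The levels were also summed over the MMP members and over the TIMP members. The summed level of the 6 MMP genes was 13.3, 13.2 and 13.7 FPKM in WT and 5.64, 5.81 and 6.10 FPKM in KO libraries. The summed level of the 3 TIMP genes was 6.52, 6.94 and 6.71 FPKM in WT and 9.52, 9.96 and 9.83 FPKM in KO libraries. Summed over these 9 genes, MMP levels were above TIMP levels in each WT library and below them in each KO library, an order that rests on which MMP genes are summed. Over all 23 MMP and 4 TIMP genes of the lists, a choice made after the data were seen, MMP levels were above TIMP levels in all 6 libraries, with a ratio of 2.76 to 2.98 in WT and 1.38 to 1.51 in KO libraries, and Mmp19 made up most of what was added. The ratio of the sums over the members was 1.99 ± 0.0735 with WT and 0.599 ± 0.0199 with KO neutrophils (exact two-sided permutation p = 0.1). Mmp9 made up 53.33% ± 0.467 of the MMP sum in WT and 16.82% ± 2.73 in KO libraries. Such a ratio of transcripts does not depend on library scaling, and it measures neither protein nor enzyme activity.

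**Figure D3:**
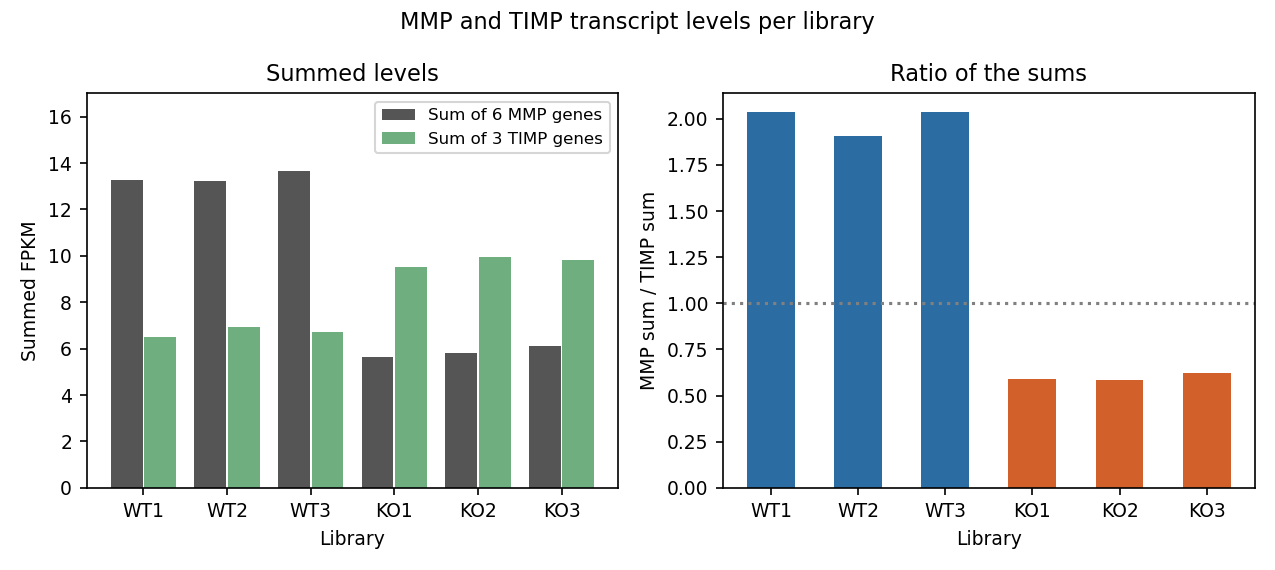
Left, summed FPKM of the 6 MMP genes and of the 3 TIMP genes in each library, and right, the ratio of the sums (dotted line at a ratio of 1), all axes from 0. The ratio was 1.91 to 2.04 in the WT libraries and 0.583 to 0.621 in the KO libraries, and it was above 1 in both arms when every MMP gene, with Mmp19, was summed.

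The remaining genes of these families were mostly at or near 0. Of 18 other MMP and TIMP genes, 9 were listed at 0 in all 6 libraries and 2 entered the test. Mmp19, whose protein can cut basement membrane proteins, had 5.14, 4.84 and 4.39 FPKM in WT and 7.33, 6.499 and 7.37 FPKM in KO libraries. Its arms did not overlap and it rose with KO neutrophils (log2 change 0.48, SE 0.07, limma adjusted p = 0.00232), in the direction opposite to Mmp9 and Mmp12. Mmp23 was at 1.04 ± 0.113 FPKM in the WT arm and 1.23 ± 0.176 FPKM in the KO arm and was not called (log2 change 0.13, 95% interval -0.09 to 0.34, limma adjusted p = 0.288). With Mmp19 and Mmp23 set beside Mmp9 and Mmp12, the 4 MMP genes that could be tested did not move in one direction.

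Of 30 other ADAM and ADAMTS genes, 16 were listed at 0 throughout and 6 entered the test, of which 2 were called higher, 2 lower and 2 neither. Beside this, 43.3% of all genes tested were called, 24.5% higher and 18.8% lower, and 6 genes are too few to compare. Adamts1, which cuts proteoglycans, rose from 10.72 ± 0.118 to 14.26 ± 0.419 FPKM (log2 change 0.38, limma adjusted p = 0.000292). Adamts10 rose from 1.37 ± 0.156 to 2.13 ± 0.0608 FPKM (limma adjusted p = 0.0050). Beside the Adam8 decrease, Adam15 fell by 0.17 on the log2 scale (24.46 ± 0.808 to 21.66 ± 0.546 FPKM; limma adjusted p = 0.0106). Adam17, which encodes the enzyme that sheds tumour necrosis factor, was at 32.34 ± 2.45 FPKM in the WT arm and 26.53 ± 2.72 FPKM in the KO arm (log2 change -0.28, limma adjusted p = 0.0418). The Adam17 call was lost without WT replicate 1 (0.108), WT replicate 2 (0.115), KO replicate 2 (0.0616) or KO replicate 3 (0.0741), without the filter (0.101) and without the variance trend (0.0541), values that are limma adjusted p. Adam8 was thus the most abundant of the ADAM genes listed here, and its call rested on no single library.

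Proteins that activate, dock or clear these proteinases were read as a list of 18 genes, of which 10 were tested, 6 fell, 2 rose and 2 were not called, with a median log2 change of -0.37, beside 43.3% of all genes tested that were called in either direction. Furin, which encodes the convertase that activates MMP14 and many ADAM proenzymes, had 14.0, 13.9 and 13.6 FPKM in WT and 6.35, 6.19 and 6.13 FPKM in KO libraries. The arms were far apart beside their spread, and Furin fell by 1.04 on the log2 scale (SE 0.04, limma adjusted p = 4.51e-06). Plau encodes urokinase, which turns plasminogen into plasmin, and plasmin activates several proMMPs. It rose from 90.45 ± 2.47 to 166.0 ± 4.26 FPKM (log2 change 0.87, limma adjusted p = 4.63e-06). The urokinase receptor gene Plaur fell from 29.49 ± 0.985 to 15.92 ± 1.02 FPKM (limma adjusted p = 4.62e-05). The urokinase transcript thus moved in the direction opposite to that of its receptor.

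Among the rest of that list, Lrp1, a receptor that takes up MMP9 and TIMP complexes, was called higher (45.60 ± 0.357 FPKM with WT, 54.71 ± 0.815 FPKM with KO). Rhbdf2, which encodes the carrier iRhom2 of ADAM17, Thbs1, which encodes the MMP-binding protein thrombospondin 1, and Itgb3, an integrin subunit, were called lower. Itgb3 had a mean of 1.339 FPKM in the WT arm and 0.862 FPKM in the KO arm, so it entered the test through its WT libraries. The Itgb3 call was lost without WT replicate 1, WT replicate 3, KO replicate 1 or KO replicate 3, without the filter and with a replicate block (limma adjusted p 0.0656 to 0.0790). Cd44, a docking receptor of MMP9 on the cell surface, had a log2 change of -0.42 and missed the threshold (95% interval -0.76 to -0.08, limma adjusted p = 0.0540). Cd44 was called in 3 of 14 alternatives, without KO replicate 3 (log2 change -0.24, limma adjusted p = 0.00328), with a mean of at least 5 FPKM (0.0473) and on the TPM scale (0.0401). Bsg, whose protein induces MMPs in neighbouring cells, was at 108.6 ± 14.1 FPKM in the WT arm and 93.65 ± 14.2 FPKM in the KO arm (95% interval of the log2 change -0.55 to 0.12, limma adjusted p = 0.254). Bsg was called in 1 of 14 alternatives, with a replicate block (limma adjusted p = 0.00593).

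Of 21 matrix components that such enzymes can cut, 10 were listed at 0 in all 6 libraries and 3 were tested and called lower, beside 18.8% of all genes tested, and so few genes say little of the list. Lamc1, a laminin chain of basement membranes, fell from 39.71 ± 0.276 to 20.22 ± 0.569 FPKM (log2 change -0.94, limma adjusted p = 3.07e-06). Spp1, which encodes osteopontin, an MMP substrate made in large amounts by activated macrophages, fell from 2688 ± 35.2 to 2099 ± 33.3 FPKM (limma adjusted p = 2.34e-05). Agrn, a proteoglycan gene, fell by 0.49 on the log2 scale (limma adjusted p = 0.00308). Of 13 astrocyte and oligodendrocyte markers, 0 reached a mean of 1 FPKM, with sums of 0.390 to 0.621 FPKM in WT and 0.353 to 0.604 FPKM in KO libraries.

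**Figure D4:**
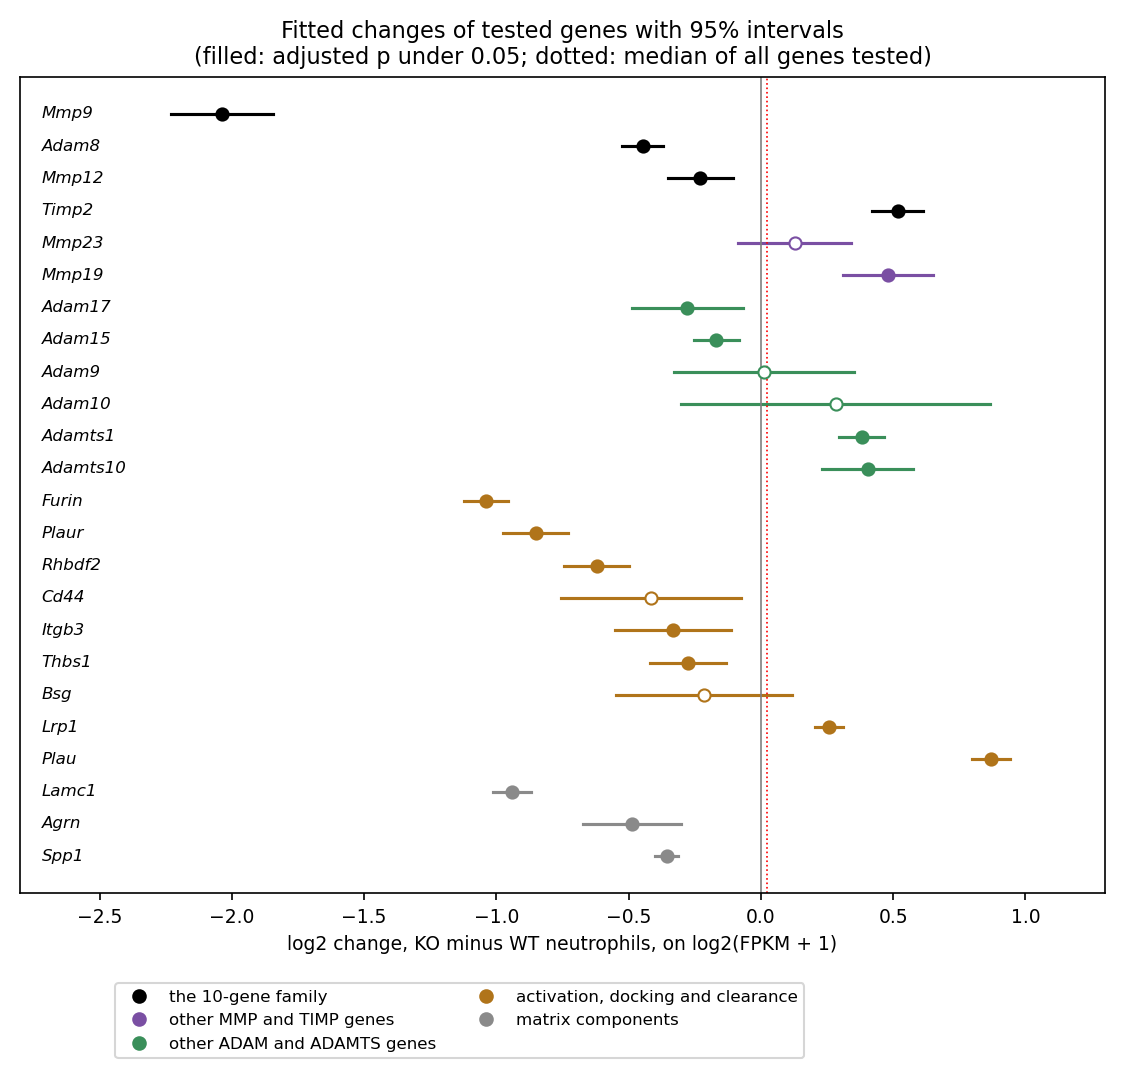
Fitted log2 changes (KO minus WT neutrophils, on log2(FPKM + 1)) of tested genes of the family and of its related lists, with 95% intervals as bars, filled where the adjusted p was under 0.05. Of the genes drawn, Mmp9 at -2.04 and Furin at -1.04 lie farthest to the left and Plau at 0.87 farthest to the right.

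At an adjusted p under 0.05, the calls of the 4 tested members held under the other filters, scalings and fits in which they were tested. The 2-fold threshold of the study, put on the limma fit, kept Mmp9 alone of the 4. Mmp9 had a log2 change of -2.75 to -1.96 over 13 alternatives and was called in all 13. Mmp12 had -0.31 to -0.20 and was called in 13 of 13, with a limma adjusted p of up to 0.0430. Adam8 at -0.50 to -0.42 and Timp2 at 0.50 to 0.58 were called in 14 of 14. When each library was rescaled to a common sum, 55.02% of all calls were lower with KO neutrophils instead of 43.43%, and the median change of all genes moved from 0.02 to -0.02, while the 4 members kept their directions.

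**Figure D5:**
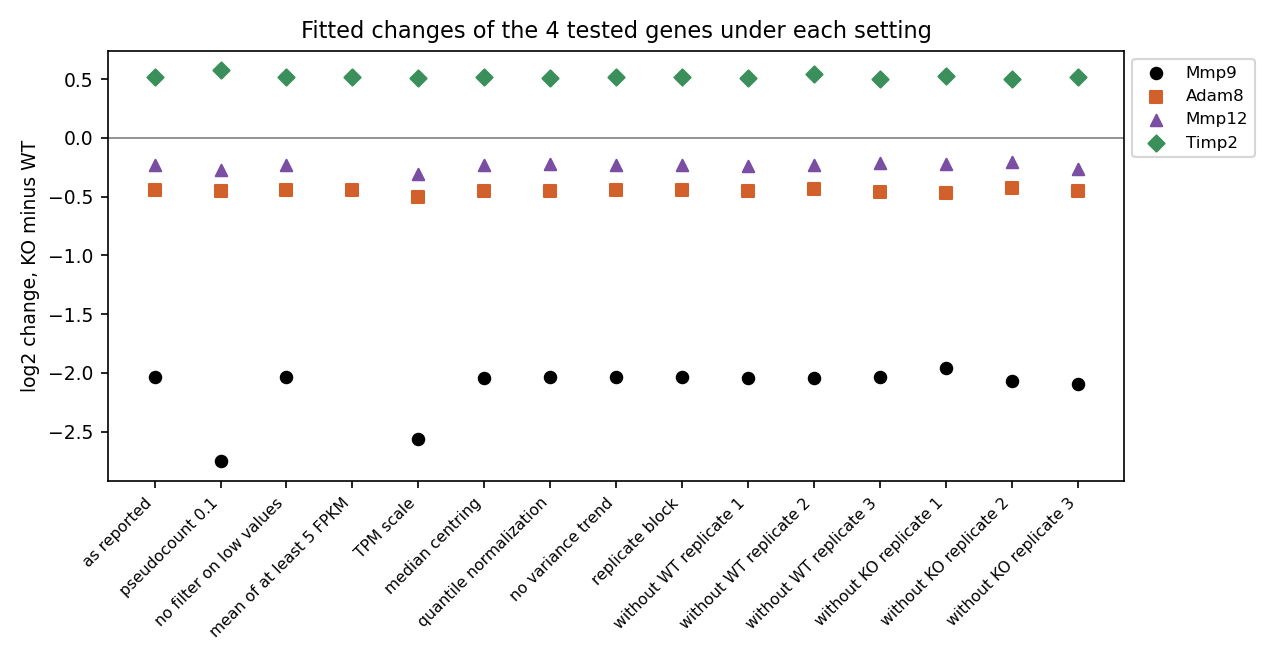
Fitted log2 change (KO minus WT) of the 4 tested members under each setting. The adjusted p was under 0.05 at every point drawn. Mmp9, Mmp12 and Adam8 stay below 0 and Timp2 above 0 in every setting in which they were tested.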

How the data were processed

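RNA was sequenced from 6 libraries of sorted microglia, 3 per neutrophil genotype, grouped by their titles. FPKM values were deposited by the authors as a single table with 55335 gene identifiers and 1 column per library. The submitters' processing notes name fastp 0.17.1, HISAT2 2.1.0, DESeq2 1.18.1 and R 3.4.3. The quantifier, genome build and annotation are not given in the sources used here, and the labels and the methods name different library kits and sequencers. Symbols and positions came from GENCODE M21 (GRCm38), which held 55154 of the identifiers, and promoters from RefSeq. Of low values, 27.9% to 34.0% came out as whole fragments (tolerance 0.05, 10.0% by chance), so reads could not be recovered and no count test was run. Depth is therefore an estimate, and the floors leave out all error but that of counting.

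Differences, KO minus WT, were fitted on log2(FPKM + 1) with limma 3.58.1 (lmFit, eBayes with trend; R 4.3.3) for genes whose mean reached 1 FPKM, with Benjamini-Hochberg adjustment. This scale understates the change of low genes. Each member was also compared by an exact two-sided permutation test in SciPy, whose smallest p with 3 against 3 is 0.1. Alternatives were a pseudocount of 0.1, no filter, a mean of at least 5 FPKM, quantile normalization, median centring, TPM scale, a fit without the variance trend, a replicate block, each library left out and the study's threshold. All 10 members were named, and of each related list up to 4 genes with the smallest p and any with a mean of at least 100 FPKM, and of each marker list the 4 with the highest mean and those listed at 0, of which only some are named here. Lrp1, Rhbdf2, Thbs1, Itgb3 and Cd44 were added after their values were seen, as were the printed promoters and the sex-linked genes. Of the lists, 2 genes enter the counts and sums but are not reported here. The members and lists were chosen with earlier results of these data known.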

Additional observations from a re-analysis of the deposited data

How the results depend on the processing

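Of 471 values recomputed under an alternative, 440 kept their call, or stayed close to the reported count or within the spread between replicates. Among these, the untested difference of Mmp8 lay near 0 and took both signs. Genes called were 4930 as reported and 293 under the study's threshold, where 1 member (Mmp9) was called. With a mean of at least 5 FPKM, 2 members were called, since Mmp9 and Mmp12 were not tested. With no filter on low values 5 members were called, Mmp13 being added. Adam9, not called as reported, changed sign on the TPM scale (-0.036, not called) and without WT replicate 3, where it was called, and its change ran from -0.16 to 0.11 over the fits that left out 1 library (0.01 as reported). Leaving out 1 library in turn gave 4082 to 4223 genes called and 4 members in each fit. Same-numbered libraries did not deviate together (correlations of deviations -0.0751, -0.0524 and -0.0052). A replicate block gave 4212 genes called, 4026 of them shared with the reported calls, and the same count of 4 members. With the block Bsg was called (limma adjusted p = 0.00593) and Itgb3 was not (0.0669). Summed over every MMP and TIMP gene instead of the members, the mean ratio of MMP to TIMP levels was 2.87 instead of 1.99 in the WT arm and 1.455 instead of 0.599 in the KO arm. For 4 untested members, a pseudocount of 0.1 and the TPM scale widened the log2 difference without changing its sign. It moved for Mmp13 from -0.47 to -1.29 and -0.92, for Timp1 from -0.15 to -0.53 and -0.34, and for Mmp2 from 0.11 to 0.40 and 0.22. For Mmp14, the fourth, no fold is given since its values lay under the floor used here. With 1 library left out, the difference ran from 0.044 to 0.167 for Mmp2 and from -0.208 to -0.075 for Timp1. The count tests were not run, since reads could not be recovered. Depth limits what can be said of Mmp2, Mmp8, Mmp14, Timp1 and Timp3, which lay near or under the floor of 3 fragments on the shortest coding transcript. That floor is too high for a longer transcript.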

Other observations

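Adam9 and Adam10, shedding enzymes related to Adam8, each had at least 1 arm in which a single library stood apart. Adam9 had 34.67, 33.24 and 23.37 FPKM in the WT and 29.98, 30.38 and 30.41 FPKM in the KO libraries, with WT replicate 3 the lowest of the 6. Adam10 had 21.77, 21.71 and 35.59 FPKM in the WT and 27.08, 41.68 and 27.42 FPKM in the KO libraries, with WT replicate 3 and KO replicate 2 above the rest. Both were chosen for mention after their values were seen.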
